A study of Panicum virgatum with 8 samples.

Results

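The miR172 family of switchgrass (Panicum virgatum AP13, a tetraploid whose chromosomes come as a K and an N copy) was represented by 2 mature sequences, ata-miR172b-3p and ata-miR172c-3p. They were predicted at 6 of the 210 loci in the deposited table. This is a table of candidates and not a final set: 25 of its loci miss the study's stated limits for a precursor, and 118 have a miRNA* abundance of 0. The set of conserved switchgrass miRNAs that the study reports has fewer sequences and fewer precursors than this table. Which of the miR172 loci belong to that set was not examined here. A locus was taken as a member where the strand with the higher or equal listed abundance carried a miRBase name of miR172, and each locus was counted once. The names are those of matched miRBase entries from other species, here Aegilops tauschii (ata), Solanum tuberosum (stu) and Arabidopsis lyrata (aly), and other prefixes name other plants in the same way. Small RNAs were sequenced from 8 libraries, with 1 library for each condition. The conditions were cold at 4 °C for 24 h with a control for cold, drought (11 days without water) and re-watering after drought (sampled on day 12) with a control for drought, and leaf, stem and panicle. AP13 is a single genotype, grown in a greenhouse, and the stressed plants had been propagated from cuttings. For the stress and control libraries the study's methods name upper leaf blades, whereas the sample labels give above-ground tissue. No library is named in the table, and each of 206 sequences has 1 abundance however often it is listed, so the values were read as pooled over the libraries. Conditions therefore could not be compared, and no value has a replicate error. The study states a read total for each library, but the unit of the abundances and the way the libraries were combined are not given in the sources used here, so the number of reads behind an abundance cannot be worked out.

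In plants, a miRNA is cut from one arm of a stem-loop precursor as a duplex with the strand opposite, the miRNA*. The miRNA then guides an Argonaute protein to complementary transcripts. The miR172 family is known for its targets among APETALA2-like (AP2) transcription factors, which it represses by cleavage and by blocking translation. In Arabidopsis and maize, miR172 promotes the passage from juvenile to adult growth and flowering, and it rises with age as miR156, the family that represses SPL transcription factors, declines. The label of the family as AP2-targeting is this background. The study also reports evidence from sequenced RNA ends (PARE) that miR172 guides cleavage of an AP2 transcript. It gives this target as conserved between Brachypodium, sorghum and switchgrass. Those PARE data were not used here. The deposited table holds no target measurement.

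The mature forms and their miRNA* strands are shown because the family in this table is made of these 4 sequences. They are read from the deposited table in DNA letters, so that T stands for U, and capitals mark the seed (bases 2 to 8) of the mature forms.
ata-miR172b-3p: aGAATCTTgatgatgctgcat
ata-miR172c-3p: gGAATCTTgatgatgctgcat
stu-miR172b-5p: gcagcaccatcaagattcaca
aly-miR172a-5p: gtggcatcatcaagattcaca
Counted from the 5′ end, ata-miR172c-3p differed from ata-miR172b-3p by A1G alone. The forms thus shared 20 of 21 bases and the whole seed. Of the 60 mature sequences in the table, these 2 alone carried this seed. The sequences most like ata-miR172b-3p outside the family were bdi-miR529-5p and osa-miR529b, each with 10 differences among 44 sequences of 21 nt compared without gaps. Among the 60 mature sequences 49 began with U, the 5′ base typical of Argonaute 1 partners. A 5′ A was found in 4 sequences, namely ata-miR172b-3p, ata-miR390-5p and both miR529 sequences. A 5′ G was found in 3, namely ata-miR172c-3p, bdi-miR156e-3p and zma-miR169c-3p. The last of these was only equal to its most abundant miRNA*, at 5, and so counts as mature through the rule of equal abundance. With 8 G or C bases of 21 (38.1%), ata-miR172b-3p was one of 3 sequences that shared the lowest GC content of the 60.

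The family was carried almost wholly by one form. ata-miR172b-3p was listed at an abundance of 873 and ata-miR172c-3p at 5. The listed abundance of ata-miR172b-3p was thus 174.6 times that of ata-miR172c-3p, and ata-miR172b-3p made up 99.4% of the family sum of 878. Divided over the loci that carry each form, the values were 218 per locus for ata-miR172b-3p (4 loci) and 2.5 per locus for ata-miR172c-3p (2 loci). The ratio between these was 87.3. The table gives an abundance to a sequence and not to a locus, so how much each locus contributed is unknown. The unit is not named. With values listed as whole numbers, the 5 of ata-miR172c-3p lies close to the resolution of the column. It cannot be set against the study's stated minimum of 10 TP10M (a normalised read abundance), because the unit of the column is unknown.

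**Figure D1:**
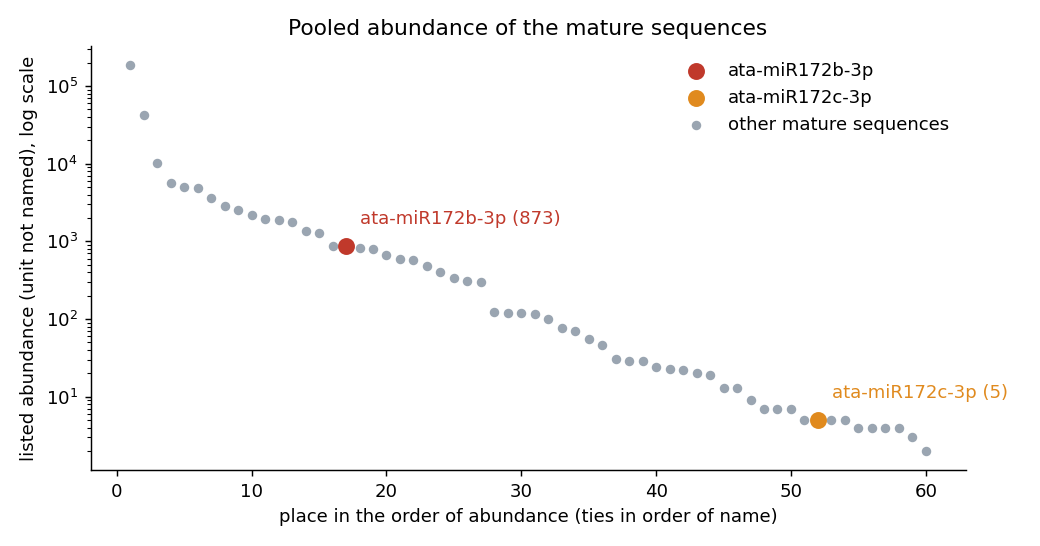
Listed pooled abundance (log axis, unit not named) of each of the 60 mature sequences, placed from highest to lowest, with the miR172 forms in colour. ata-miR172b-3p stands at 873 in the upper part of the order and ata-miR172c-3p at 5 near its end.

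In the order of abundance, ata-miR172b-3p was number 17 of 60. Its neighbours were bra-miR162-3p (874), from the family that targets DICER-LIKE1, and ata-miR156e-5p (1289) above it, and vvi-miR171j (813), from the family that targets GRAS genes, and bdi-miR529-5p (805) below it. The gaps to bra-miR162-3p (1), vvi-miR171j (60) and bdi-miR529-5p (68) cannot be weighed without a replicate error, so the order among these is not settled. ata-miR172c-3p was number 51 and was tied at 5 with 3 sequences, ata-miR169d-5p, ata-miR399a-3p and zma-miR169c-3p. For ata-miR169d-5p and zma-miR169c-3p the most abundant miRNA* was also listed at 5. The next value above was 7, for 3 sequences that included ata-miR2118d-3p and bdi-miR2118a, and the next below was 4, for 4 sequences that included bdi-miR156j and bdi-miR169d. The median of the 60 sequences was 118.5, and the highest value was 185355 for ata-miR166d-3p. The miR172 forms together made up 0.312% of the summed abundance of 281001.

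By family sum, miR172 at 878 was number 11 of 29 families, with 10 families above it and 18 below. Of the 4 families listed for phase change and flowering, 3 had a higher sum and 1 a lower one. The higher ones were miR319 (10152), which targets TCP genes, miR159 (5182), which targets GAMYB genes, and miR156 (3469). The lower one was miR529 (851), which shares SPL targets with miR156. The most abundant single sequences of these families were bdi-miR319b-3p at 10152, bdi-miR159b-3p.1 at 5079, gma-miR156o at 1866 and bdi-miR529-5p at 805. Of 7 other families that target transcription factors, 5 lay above miR172. These were miR166 (193400, HD-ZIP targets), miR396 (5551, GRF targets), miR167 (5435, ARF targets), miR171 (2662, GRAS targets) and miR164 (1826, NAC targets). Their leading sequences were ata-miR166d-3p, ata-miR396c-5p (2888), ata-miR167d-5p (4837), ata-miR171a-3p (1362) and ata-miR164c-5p (1795), each above ata-miR172b-3p at 873. The families miR160 (117, ARF targets) and miR169 (71, NF-YA targets) lay below miR172, led by ata-miR160c-5p at 117 and ata-miR169f-5p at 29. Set beside its counterpart in phase change, miR172 had a sum of 878 from 6 loci and miR156 a sum of 3469 from 26 loci. Because the values cover leaf, stem, panicle, stress and control libraries together, these sums belong to no one tissue or age.

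The miRNA* strands divided the family differently from the mature forms. stu-miR172b-5p was listed at 158 and was found at the 2 loci on chromosome 1, both of ata-miR172b-3p. aly-miR172a-5p was listed at 1 and was found at the other 4 loci, of which 2 carry ata-miR172b-3p and 2 carry ata-miR172c-3p. Neither miRNA* was found outside the family. Among 43 miRNA* sequences with an abundance of at least 1, whose median was 7, stu-miR172b-5p was number 3, after ata-miR168-3p (2021) and ata-miR396c-3p (190). aly-miR172a-5p was among 7 tied at the lowest value, 1. The listed abundance of ata-miR172b-3p was 5.53 times that of stu-miR172b-5p and 873 times that of aly-miR172a-5p. For ata-miR172c-3p the ratio to aly-miR172a-5p was 5.0. The 873 of ata-miR172b-3p is shared by 4 loci, of which 2 carry each miRNA*. These are therefore ratios of sequences and not of any one precursor. Over the 30 mature sequences with a miRNA* of at least 1, each taken with its most abundant miRNA*, the median ratio was 22.0. The miR172 forms were numbers 7 and 6 from the low end of that order, in the order ata-miR172b-3p and ata-miR172c-3p. With ata-miR172c-3p listed at 5 and a miRNA* of at least 1 required, its ratio could not exceed 5.0. Its low place therefore says nothing about its miRNA*. All 6 miR172 loci had a miRNA* of at least 1, as did 92 of the 210 loci in all. Since aly-miR172a-5p is shared by both forms, its value of 1 cannot be divided between them.

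From stu-miR172b-5p to aly-miR172a-5p the substitutions were C2T, A3G and C7T, counted from the 5′ end of the miRNA*, and the remaining 18 bases were identical. With an overhang of 2 nt at each 3′ end, which gave the most Watson-Crick pairs among the registers tried, these positions lie opposite bases 18, 17 and 13 of the mature form. Of 19 paired positions, ata-miR172b-3p with stu-miR172b-5p had 17 Watson-Crick pairs and mismatches at positions 1 and 13. With aly-miR172a-5p it had 16 Watson-Crick pairs, G:U pairs at positions 17 and 18, and a mismatch at position 1. ata-miR172c-3p with aly-miR172a-5p had the same pattern, because the base that separates the mature forms was mismatched in either case. The seed was fully paired in all 3 duplexes.

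**Figure D2:**
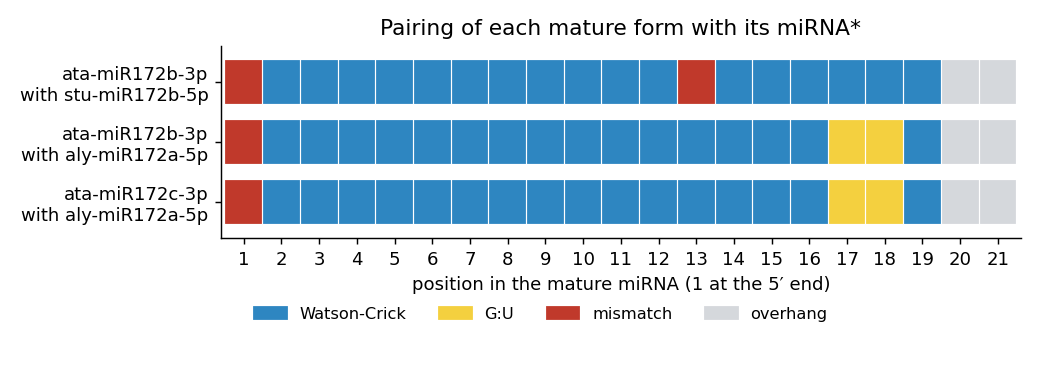
Pairing along the mature miRNA (position from the 5′ end, horizontal) for the 3 combinations of mature form and miRNA*, with Watson-Crick pairs, G:U pairs, mismatches and the 3′ overhang in different colours. Position 1 is mismatched in all 3 rows, and the rows with aly-miR172a-5p have G:U pairs at 17 and 18 in place of the mismatch at 13.

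The miRNA lay on the 3′ arm at all 6 miR172 loci, whereas over all 210 loci it lay on the 3′ arm at 96 and on the 5′ arm at 114. In version 4.1 of the genome, ata-miR172b-3p precursors were listed at chr1K:79130129-79130297 and chr1N:96448476-96448639, both on the minus strand. It was also listed at chr2K:51295187-51295334 and chr2N:4229401-4229555, both on the plus strand. The ata-miR172c-3p precursors were at chr5K:115838781-115838866 and chr5N:99242666-99242776, both on the minus strand. The family thus had 3 loci on K and 3 on N chromosomes and none on scaffolds, and each of 3 chromosome pairs held the same mature form and the same miRNA* on both copies. Neighbouring genes were not analysed here.

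The hairpins of the mature forms differed in size. For ata-miR172b-3p the hairpin was 150 nt on 1K, 145 nt on 1N, 117 nt on 2K and 147 nt on 2N, with free energies of -70.0, -72.9, -73.4 and -77.2 kcal/mol in that order. For ata-miR172c-3p it was 83 nt on 5K and 108 nt on 5N, with -52.3 and -53.6 kcal/mol. The energies of the ata-miR172c-3p loci were thus less negative than those of all 4 ata-miR172b-3p loci. The listed hairpins on 5K and 5N reached the last nt of their precursors, of 86 and 111 nt. At the ata-miR172b-3p loci they ended before it, in precursors of 148 to 169 nt. The part of the pipeline's choice of window in this contrast was not tested. Set against all 210 loci from the most to the least stable, the ata-miR172b-3p loci were numbers 102, 90, 89 and 74 and the ata-miR172c-3p loci numbers 187 and 182. The median energy was -71.5 kcal/mol for the 6 loci and -68.7 kcal/mol for the 204 others, and the median hairpin length was 131 nt against 123.5 nt. Energy scales with length. Per nt, the lowest values of the family were -0.63 kcal/mol on 5K and -0.63 kcal/mol on 2K, numbers 25 and 27 of 210, while 1K was at -0.47 kcal/mol, number 173. The 2K value rests on the more stable of 2 listed structures. The other, of 144 nt and -72.9 kcal/mol, was less stable by 0.505 kcal/mol and gave -0.51 kcal/mol per nt, number 132, near 2N at -0.53 kcal/mol and number 114. The median per nt was -0.51 kcal/mol for the 6 loci and -0.54 kcal/mol for the 204 others. The order by total energy therefore did not hold per nt.

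**Figure D3:**
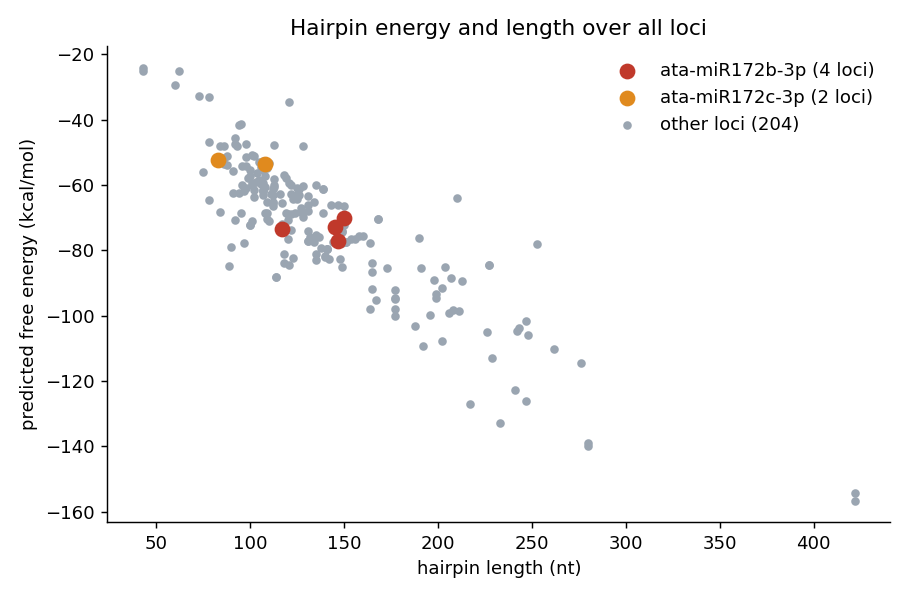
Predicted free energy (kcal/mol, vertical) against hairpin length (nt, horizontal) for each locus, with the 4 ata-miR172b-3p loci, the 2 ata-miR172c-3p loci and the 204 other loci. The miR172 loci lie inside the cloud of the others, with 5K at 83 nt near its short end and 5N at 108 nt above the first quartile of 105 nt over all loci.

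Within a chromosome pair, the K and N copies of a miR172 precursor differed in the stretch between the miRNA* and the miRNA. This stretch, the upper stem and loop, was 77 nt on 1K and 72 nt on 1N, 56 nt on 2K and 63 nt on 2N, and 22 nt on 5K and 47 nt on 5N. It was longer by 5 nt on 1K, and longer by 7 nt on 2N and by 25 nt on 5N. The whole precursors of each pair differed by the same lengths. This is no second observation, because the precursor outside the duplex was equally long on both copies of each pair. On chromosomes 1 and 5 the hairpin outside the duplex was of equal length on both copies, with 17 nt before the miRNA* and 14 nt after the miRNA on 1K and 1N, and 11 nt and 8 nt on 5K and 5N. On chromosome 2 these were 11 and 8 nt on 2K and 22 and 20 nt on 2N. In the other structure listed for 2K they were 24 and 22 nt, so this difference depended on which of the structures was taken, whereas the stretch between the arms was 56 nt in both. The N copy had the more negative energy in all 3 pairs, by 2.85, 3.85 and 1.31 kcal/mol (K minus N) for chromosomes 1, 2 and 5. Among 32 other pairs of K and N loci with the same miRNA and miRNA*, the K copy was less stable in 14 and more stable in 18, with differences between -16.9 and 17.1 kcal/mol. The miR172 differences lie within that range. The stretch between the arms differed by a median of 2 nt in those 32 pairs and by over 20 nt in 3 of them. Both outer stem lengths were equal in 19 of those 32 pairs, so equal outer stems are not particular to miR172. The start of the first strand within the precursor was at 10, 12, 14, 25 or 27 nt at 177 of the 210 loci. On 5K and 5N it was at 14 nt, and the hairpin ended at the last nt of the precursor. The part of the pipeline's choice of window in the outer stem lengths was not tested.

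**Figure D4:**
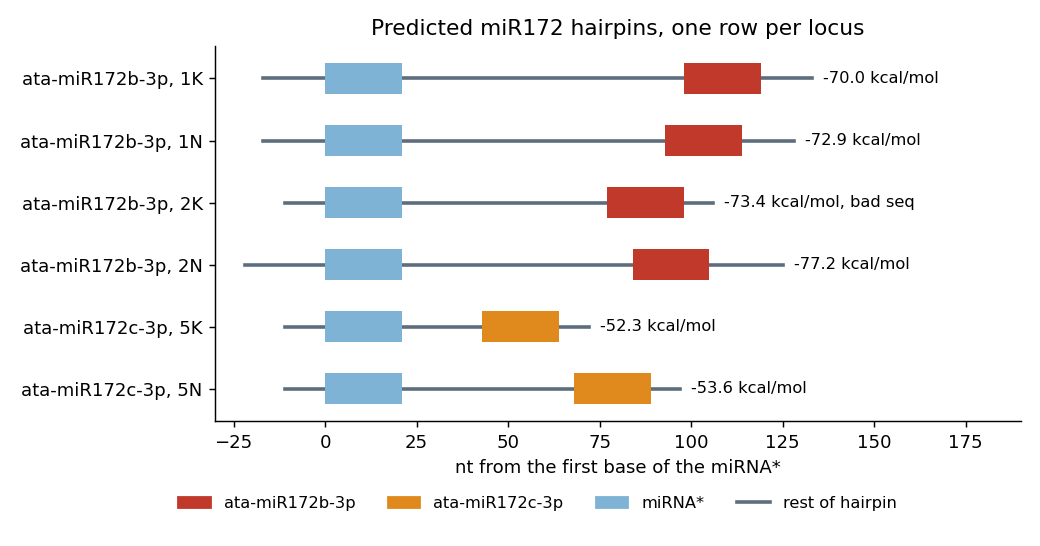
Layout of the 6 predicted miR172 hairpins, aligned at the first base of the miRNA* (0 nt on the horizontal axis) and with 2K in its more stable structure, with the miRNA* and the mature form as boxes, the rest of the hairpin as a line and the free energy at the right. The distance between the boxes is 22 nt on 5K and 77 nt on 1K. The K and N copies of chromosomes 1 and 5 have equal outer stems, as do 19 of 32 other pairs of K and N loci.

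The 2K locus was the one member that missed the study's stated limits of 5 mismatch positions and 3 nt in asymmetric bulges between miRNA and miRNA*. The deposited table gave it 6 mismatch positions, 4 nt in asymmetric bulges and 5 mismatches in a row, and the call "bad seq". The other 5 loci had 2 mismatch positions, 0 nt in bulges and the call miRNA candidate. That call was given to 5 of the 6 miR172 loci and 162 of all 210 loci, and 5 of 6 and 185 of 210 met the limits. Meeting these limits does not place a locus in the smaller set that the study reports. Yet the miRNA and the miRNA* at 2K and 2N were letter for letter the same, and their direct alignment gave 1 mismatch and 2 G:U pairs at both. The alignment and the listed count are unlike measures. On 2N, 5K and 5N the listed count was 2, where the alignment also gave 1 mismatch. Over the whole table, 53 duplexes of one miRNA and one miRNA* recurred at 2 or more loci, and the listed mismatch count differed between loci for 2 of them. These were the miR172 duplex of chromosome 2 and a miR396 duplex, where the counts differed by 1. Where the 2K structure is listed from the side of aly-miR172a-5p, its partner is a strand of 25 nt in place of 21 nt. It is shown because no other strand listed at the miR172 loci is longer than 21 nt, with the 4 extra bases at its 5′ end in capitals.
2K partner of aly-miR172a-5p: CATGagaatcttgatgatgctgcat
This longer strand carries the name and the abundance of 873 of ata-miR172b-3p, so it has no abundance of its own. The other structure listed for 2K had the same counts of mismatches and bulges. The 4 extra bases equal in number the 4 nt listed in bulges and the excess of the listed mismatch count on 2K over that on 2N. Precursor sequences were not used here, and the part of the longer strand in the listed counts was not tested.

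The place of the miR172 loci among the other miRNA loci was alike on both copies of chromosomes 1 and 5. By start position, ata-miR172b-3p was the last of 22 loci on 1K and the last of 33 on 1N, and ata-miR172c-3p was the last of 18 on 5K and the last of 16 on 5N. On chromosome 2 the places differed. The locus was number 5 of 10 on 2K and number 1 of 12 on 2N. Taking only mature sequences with 1 locus on each copy, chromosome 2 had 7, and the 6 others were in the same order on 2K and 2N. ata-miR172b-3p was number 4 in this order on 2K and number 1 on 2N, so that it had changed places with 3 of the 6. On chromosome 5 all 8 sequences kept their order, and on chromosome 1 ata-miR172b-3p kept its place relative to all 8 others. Of those 8 on chromosome 1, only 3 kept their order among themselves, so changed places there involved other families. Over 9 chromosome pairs there were 45 such sequences, counted once for each pair, of which 30 changed places with none. No other sequence on these pairs changed places with more than 3, and ata-miR171a-3p on chromosome 7 did so with 3 of 7. The nearest other miRNA locus was 9.61 Mb away on 2K (bdi-miR156e-3p) and 1.08 Mb away on 2N (ata-miR160c-5p). It was 1.57 Mb away on 1K and 0.91 Mb on 1N, and 7.78 Mb away on 5K and 10.4 Mb on 5N. The placement of the 2K and 2N loci in the genome assembly was not tested.

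**Figure D5:**
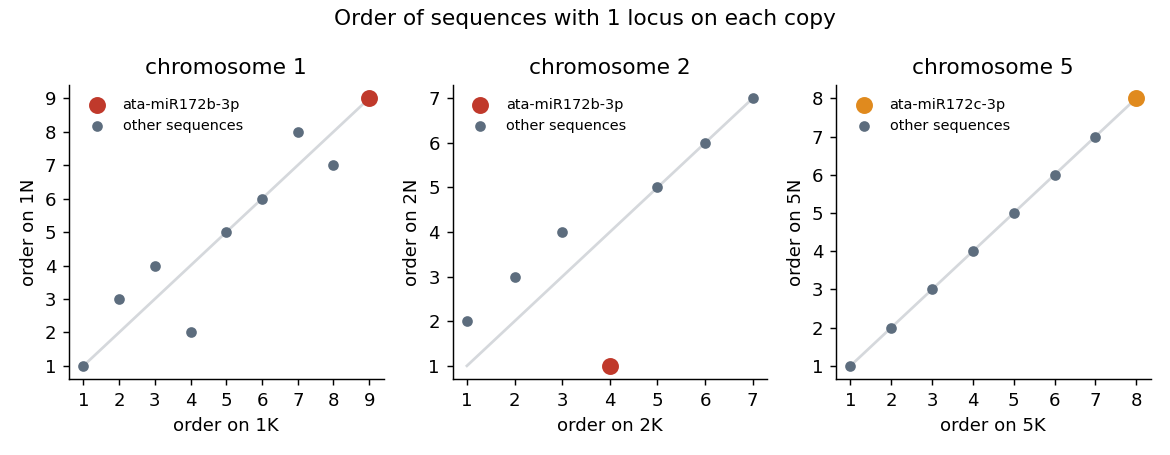
Order by start position on the K copy (horizontal) and on the N copy (vertical) of mature sequences with 1 locus on each, for chromosomes 1, 2 and 5, with miR172 in colour and equal order as a line. miR172 is last on both copies of chromosomes 1 and 5, and is number 4 on 2K but number 1 on 2N.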

How the data were processed

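Switchgrass small RNA reads from 8 conditions, 1 library each, had their adapters removed by the authors and were aligned with Bowtie (0.12.7 in the submitters' processing notes) to genome release 4.1. Their miRNA search, per the methods, took reads matching miRBase 21 that were 20 to 24 nt long, reached 10 TP10M and had no more than 20 genome hits. Pairing was evaluated with modified miREAP. Precursors whose strand bias reached 0.9 and whose abundance bias reached 0.7 were folded with UNAFold. Both abundance columns that the authors deposited are treated as a score without a named unit. Limits of at most 5 mismatch positions, 3 nt in bulges and precursors under 300 nt were not applied unless stated. Each locus was described by its most stable structure within those limits, or otherwise by its most stable one. Free energies are in kcal/mol, the unit UNAFold writes, and distinct sequences were summed once. Pairing was read from the sequences with a 2 nt overhang. No test was run, since there are no replicates and loci are not replicates. Locus selection and pairing were tested on simulated data. The members and lists were chosen with earlier results of these data known. Sequences named were all those at miR172 loci, their neighbours in abundance, the most abundant sequence and the leading sequences of the listed families; those named for likeness, first base, miRNA* or position were chosen after their values were seen. The reference table of another assembly was not used here. Python 3.11.15, numpy 2.4.6, pandas 2.3.3 and matplotlib 3.10.9 were used.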

Additional observations from a re-analysis of the deposited data

How the results depend on the processing

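Of 27 values recomputed under an alternative, 20 stayed close to the reported one (counts, ranks, shares and ratios within 1.5 times, energies within the SD of 10.8 kcal/mol over the 6 loci) and 7 moved. A miRNA* abundance of at least 10 left 2 miR172 loci and 1 mature sequence, ata-miR172b-3p on chromosome 1. A miRNA abundance of at least 10 left 1 mature sequence, ata-miR172b-3p, at 4 loci. The drop from 6 to 4 loci still counted as close under the limit of 1.5 times. Without ata-miR166d-3p the miR172 share of the summed abundance was 0.918%. The ratio of ata-miR172b-3p to ata-miR172c-3p per locus was 87.3. With the second structure listed for 2K, an alternative chosen after seeing the data, the 2K locus was number 132 in place of 27 by energy per nt and had 24 nt in place of 11 nt before the miRNA*, and the median energy of the 6 loci was -71.4 kcal/mol. Each of these shifts is set by how its alternative is built (fewer loci or sequences, another divisor or another structure). Some of the 20 values that stayed close could not move. No miR172 locus lay on a scaffold, and all 6 already had a miRNA* of at least 1. The 20 are therefore no measure of how firm the results are. No paired analysis was possible because the table pools 8 single libraries. The reads behind an abundance cannot be worked out from a column without a named unit, so no limit of detection is given.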
